A study of Mus musculus with 6 samples.

Results

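The Ccl24 Saa3 Ednrb cells described here are cells of the mouse heart that carry monocyte or macrophage transcripts together with transcripts of Ccl24, Saa3 or Ednrb. They were chosen by measured values. A cell had to hold at least 1000 unique molecular identifiers (UMIs, counted mRNA molecules), at least 200 genes and at most 20% mitochondrial UMIs. It then needed at least 5 UMIs of Csf1r, Cd68, Fcgr1 and Lyz2 in sum, under 1% of its UMIs from S100a8 and S100a9, and at most 2 UMIs of Col1a2 and Cdh5 in sum. The 9578 cells past these limits are called monocytes and macrophages below. The rule kept those with at least 5 UMIs of Ccl24, Saa3 and Ednrb in sum, fewer than 4 of Trem2 and Gpnmb, at most 3 of Lyve1, Folr2, Timd4 and Cd163, and fewer than 10 of Ifit1, Ifit2, Ifit3 and Rsad2. It found 1496 cells among 34940 deposited cells, of which 30014 passed the limits on UMIs, genes and mitochondrial share. Each library contributed between 111 and 462 of them.

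The libraries came from non-cardiomyocytes of the ventricles of male mice 8 to 12 weeks old, digested with thermolysin and papain and sorted as live cells by Calcein-AM and DAPI. Wild-type (WT) mice were of the strain C57BL/6JRj, and knockout (KO) mice were B6.Cg-Trpm4tm1.2-PG, which carry a targeted allele of Trpm4, a calcium-activated cation channel. All animals were operated: either a sham intervention with sampling at 24 h, or ligation of the left anterior descending (LAD) coronary artery with sampling at 24 h or 72 h. Each of the 6 genotype and condition groups is 1 library of cells pooled from 4 mice, so no group has a replicate, there is no test of any difference between groups, and every interval below covers counting error only. No sham animals were sampled at 72 h, and the 2 strains cannot be told apart from the Trpm4 allele.

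Ccl24 (eotaxin-2) is a chemokine that draws eosinophils through the receptor Ccr3. Saa3 is a serum amyloid A made locally in inflamed tissue, by macrophages among other cells, and Ednrb is the endothelin receptor type B, better known in the heart from endothelial cells. Ltc4s joins glutathione to leukotriene A4 to make leukotriene C4, Prtn3 is a serine protease of granulocyte and monocyte granules, and Fn1 is fibronectin, a matrix protein that monocytes also make. After LAD ligation the mouse heart takes in neutrophils and then monocytes, which become macrophages within days.

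Promoter sequence is shown for Saa3, one of the rule genes, and for Ltc4s, the marker whose level moved most between conditions. On GRCm38 with GENCODE M21, Ccl24 lies on chromosome 5 (135569937-135573049, minus strand), Saa3 on chromosome 7 (46711998-46715700, minus), Ednrb on chromosome 14 (103814625-103844402, minus), Ltc4s on chromosome 11 (50236461-50238616, minus), Prtn3 on chromosome 10 (79874476-79883174, plus) and Fn1 on chromosome 1 (71585520-71653200, minus). The windows below are RefSeq sequence (GRCm38.p6), 165 bases long, from 250 to 86 bases before the RefSeq start, 5′ to 3′ on the gene's strand. They lie upstream of the gene bodies annotated by GENCODE. Capitals mark matches, on either strand, to the C/EBP core TTNNGNAA.
Saa3, chr7:46715762-46715926, minus strand: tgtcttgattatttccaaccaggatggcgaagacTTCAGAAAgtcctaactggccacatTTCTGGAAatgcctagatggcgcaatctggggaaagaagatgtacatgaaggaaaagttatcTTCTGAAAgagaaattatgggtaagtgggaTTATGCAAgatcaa
Ltc4s, chr11:50238618-50238782, minus strand: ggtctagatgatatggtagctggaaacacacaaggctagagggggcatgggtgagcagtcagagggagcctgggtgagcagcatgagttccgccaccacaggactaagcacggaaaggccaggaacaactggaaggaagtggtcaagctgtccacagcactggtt
The Saa3 window held 4 matches, at 216 to 209, 191 to 184, 129 to 122 and 99 to 92 bases before the start, and the Ltc4s window held none. Such a match occurred in 28.2% of 32851 promoter windows of the same length and place, so a single match is common. A match describes letters only.

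Depth differed between the libraries. The members' median UMIs per cell were 9223.5 and 10330.5 in the WT and KO sham libraries, 11875 and 11097 at 24 h after ligation, 5241 in WT at 72 h and 2304 in KO at 72 h. The KO ligation 72 h library stood apart. Its members summed to 837 CPM (UMIs of the gene scaled to 1000000 UMIs of the pooled cells) over 9 fibroblast markers, against 120 to 225 in the other libraries, and to 547 CPM over 8 endothelial markers, against 64.5 to 184. None of those markers was at 0 there. Its 9 lymphocyte markers summed to 184 CPM against 11.6 to 43.4, and its 7 cardiomyocyte markers to 89.0 CPM against 4.19 to 17.4. Between libraries, 236 cell barcodes recurred, 9 of them in members. Trpm4 had 31, 15, 33, 29, 3 and 0 UMIs in the members, in the order WT sham, KO sham, WT ligation 24 h, KO ligation 24 h, WT ligation 72 h and KO ligation 72 h. The deleted part of the allele is not given in the sources used here, and 3′ tags may lie outside it, so these counts check no label. Results that rest on the KO 72 h library stand beside these values, whose part in them was not tested.

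The members made up a far smaller share of the monocytes and macrophages at 72 h after ligation than at 24 h after either operation. Their share was 23.8% (282 of 1183 cells, 95% exact Clopper-Pearson interval 21.4 to 26.4%) in WT sham and 26.6% (23.7 to 29.6%) in KO sham. At 24 h after ligation it was 35.9% (32.4 to 39.6%) in WT and 27.9% (25.7 to 30.1%) in KO. At 72 h it was 4.43% (3.65 to 5.31%) in WT and 5.85% (4.98 to 6.81%) in KO. The share at 72 h was thus 0.123 times that at 24 h in WT (0.1002 to 0.151) and 0.210 times in KO (0.177 to 0.249). Over all cells past the quality limits the ratios were 0.317 in WT and 0.50005 in KO, lower at 72 h as well. Ligation at 24 h against sham gave a ratio of 1.51 (1.31 to 1.74) in WT and 1.05 (0.917 to 1.20) in KO.

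Set side by side by genotype, the share in KO was 1.11 times that in WT in the sham libraries (0.959 to 1.30), 0.777 times at 24 h after ligation (0.685 to 0.880) and 1.32 times at 72 h (1.04 to 1.68). None of these has a replicate. Over all quality cells the sham ratio was 0.752, on the other side of 1. The direction at 72 h turned with the rule: with at least 10 UMIs of the 3 genes the KO to WT ratio was 0.866, and with Trem2, resident and interferon cells kept it was 0.675.

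The exclusions removed many cells that carried the 3 genes. Of 2594 monocytes and macrophages with at least 5 UMIs of Ccl24, Saa3 and Ednrb, 872 were removed for Trem2 and Gpnmb, 440 for the resident genes and 32 for the interferon genes, with overlap between them. In WT at 72 h, 63.8% of such cells were removed, against 29.2 to 43.0% in the other libraries. With no exclusion the share was 40.7% and 45.7% in the WT and KO sham libraries, 53.2% and 49.0% at 24 h after ligation and 12.2% and 8.26% at 72 h. The order of the conditions, highest at 24 h after ligation and lowest at 72 h, was the same with and without the exclusions.

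**Figure D1:**
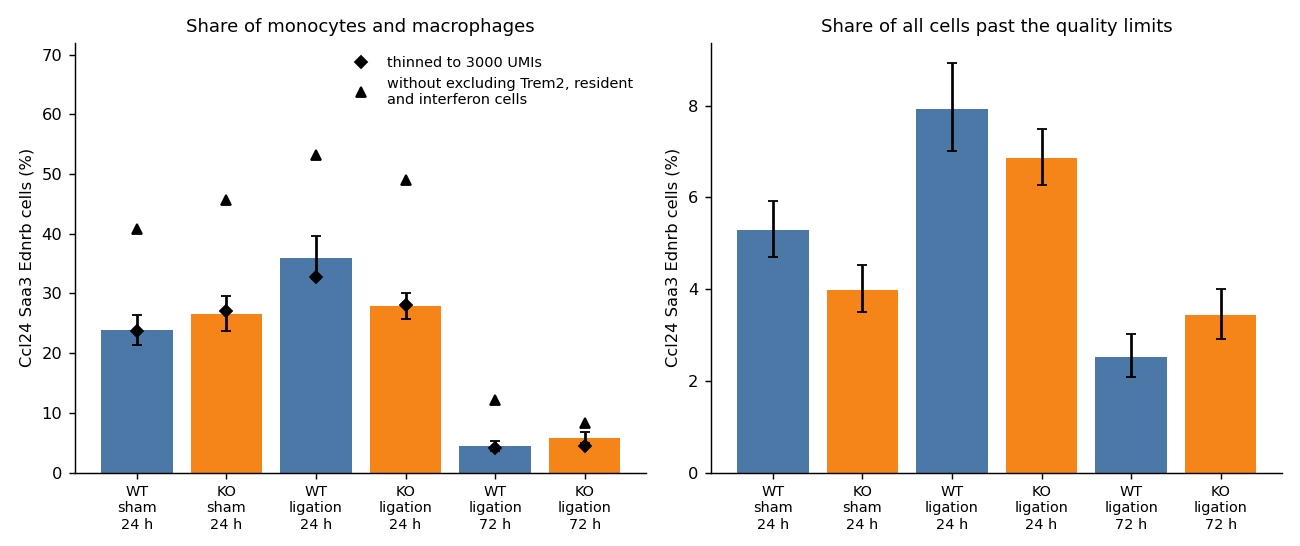
Share of Ccl24 Saa3 Ednrb cells (percent, vertical axis) among monocytes and macrophages (left) and among all cells past the quality limits (right) in each of the 6 libraries, blue WT and orange KO. Bars carry 95% Clopper-Pearson intervals; diamonds are cells thinned to 3000 UMIs and triangles leave out the 3 exclusions. Both 72 h libraries lie lowest in the left panel, at 4.43% and 5.85%.

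Because the rule counts raw UMIs, cells thinned to 3000 UMIs were compared as well. Under the rule applied to thinned cells the share was 23.7% and 27.0% in the WT and KO sham libraries, 32.7% and 28.1% at 24 h after ligation and 4.19% and 4.54% at 72 h. A Ccl24 UMI was then found in 35.2% and 39.1% of monocytes and macrophages in the sham libraries, 32.5% and 29.0% at 24 h after ligation, and 5.42% and 7.89% at 72 h. Before thinning these shares were 45.1%, 48.1%, 41.6%, 40.6%, 10.4% and 9.77%. The thinned Saa3 share was 19.9% and 26.3% in sham, 39.9% and 37.9% at 24 h after ligation and 7.96% and 12.4% at 72 h. Ccl24 was thus found in a similar or smaller share of cells after ligation than after sham, and Saa3 in a larger share at 24 h. Ednrb was found in 19.1% and 25.6%, 16.7% and 13.9%, and 8.88% and 7.19% of thinned cells, in the same order. In thinned neutrophils of the same libraries, Ccl24 was found in 0 to 2.67% of cells and Saa3 in 1.33 to 10.5%. Thinning left out 1510 of the 2651 monocytes and macrophages of the KO 72 h library, where the neutrophil background rests on 19 cells.

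The threshold fell inside a falling distribution. Over all libraries 3303 otherwise eligible cells had 0 UMIs of the 3 genes, 170 had 3, 115 had 4, 96 had 5 and 79 had 6, while 1163 of the 1496 members had at least 10. The median sum in members was 24 and 27 UMIs in the WT and KO sham libraries, 32.5 and 23 at 24 h after ligation, 26 in WT at 72 h and 9 in KO at 72 h. In KO at 72 h, 50.97% of members had 5 to 9 UMIs, against 16.1 to 25.2% in the other libraries.

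Levels of the 3 genes in the members are a description, since the rule chose on them. Ccl24 stood at 3269 and 2795 CPM in the WT and KO sham libraries, 1949 and 1084 at 24 h after ligation and 901 and 663 at 72 h. Saa3 stood at 2859.6 and 3345 CPM in the WT and KO sham libraries, 3453 and 4765 at 24 h after ligation and 6495 and 5074 at 72 h. Ccl24 was therefore highest in the sham libraries and lowest at 72 h, and Saa3 was higher in every ligation library than in its own genotype's sham library. In WT sham, 1 cell held 17.9% of the Saa3 UMIs. Ednrb stood at 312 and 369 CPM in the WT and KO sham libraries, 222 and 120.3 at 24 h after ligation and 312 and 239.8 at 72 h, with KO at 24 h the lowest. Saa3 also occurred outside these cells, at 48.7 to 1735 CPM in fibroblasts, and Ednrb at 69.2 to 119.9 CPM in endothelial cells.

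The markers that the rule did not read were Ltc4s, Prtn3 and Fn1. Ltc4s stood at 293 and 296 CPM in the WT and KO sham libraries, 63.1 and 72.1 at 24 h after ligation and 667 and 299.7 at 72 h in members. In the other monocytes and macrophages, those with fewer than 5 UMIs of the 3 genes and past the same exclusions, it stood at 32.0 and 37.9 CPM in the WT and KO sham libraries, 10.8 and 12.4 at 24 h after ligation and 27.6 and 49.5 at 72 h. Members were higher in all 6 libraries, with a median log2 ratio of 2.78. Cells removed for the resident genes carried Ltc4s too: against them the median log2 ratio was 0.60, with members higher in 4 of 4 libraries. Thinned to 3000 UMIs, a Ltc4s UMI was found in 37.5% of those cells and 35.4% of members in KO sham, 12.1% and 7.21% in KO at 24 h after ligation, and 15.2% and 50% in KO at 72 h. In WT it was found in 30.2% and 41.4%, 15% and 11.07%, and 14.05% and 54.3%, in the same order of conditions. Members were thus higher in WT sham and at 72 h and lower in the other libraries, where 20 to 72 resident cells were counted. Fn1 stood at 6632 and 5896 CPM in the WT and KO sham libraries, 3518 and 3276 at 24 h after ligation and 6748 and 4531 at 72 h, and at 903 to 1689 CPM in the other cells, with a median log2 ratio of 2.08. Prtn3 stood at 61.0 and 57.8 CPM in the WT and KO sham libraries, 32.0 and 74.4 at 24 h after ligation and 302 and 151 at 72 h. It was higher than in the other cells in 5 of 6 libraries. In WT at 24 h after ligation the other cells were higher, at 70.5 CPM. Thinned to 3000 UMIs, however, a Prtn3 UMI was found there in 7.11% of members and 3.49% of the other cells. A cluster of cells against the rest of its own library is no test, so these values describe the choice.

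**Figure D2:**
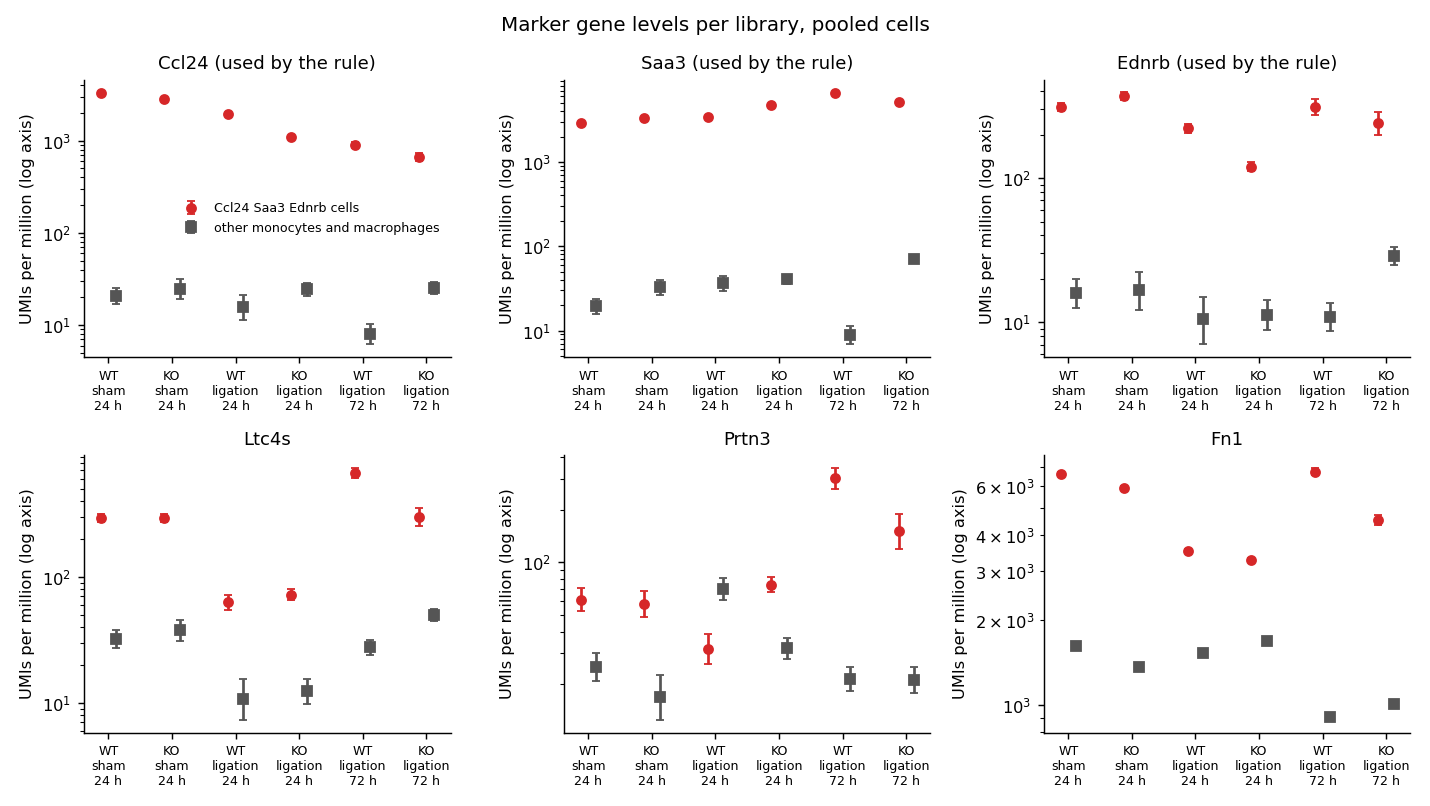
Level of each marker (CPM, log axis) in pooled Ccl24 Saa3 Ednrb cells (red circles) and other monocytes and macrophages (grey squares) of each library, with exact Poisson 95% intervals. Ltc4s in the members is lowest in the 2 libraries at 24 h after ligation (63.1 and 72.1) and highest in WT at 72 h (667), and Prtn3 in WT at 24 h after ligation is the one point where the grey square lies above the red circle among the lower panels.

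The label calls these cells macrophages. Adgre1, which codes for the macrophage surface protein F4/80 and was not in the rule, stood at 189 and 237 CPM in the WT and KO sham libraries, 133 and 113 at 24 h after ligation and 168 and 145 at 72 h, higher than in the other cells in every library. The monocyte genes Ccr2 and Ly6c2 were present too, at 529 to 686 and 65.3 to 331 CPM, so the set holds monocyte as well as macrophage transcripts and is called by its genes here. Genes of mast cells, basophils and eosinophils, which also make leukotriene C4, summed to at most 4.34 CPM over 10 genes, with 7 to 9 of the 10 at 0 in each library. Apart from Slpi, the 9 mesothelial genes summed to 0 to 1.59 CPM outside KO at 72 h, where they summed to 122 CPM. The 10 neutrophil genes summed to 320 and 332 CPM in the sham libraries, 990 and 1392 at 24 h after ligation and 798 and 520 at 72 h, led by S100a8, which the rule capped. Scrublet scores marked between 1.72% and 5.63% of members as possible doublets per library.

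At a cut of 5 UMIs, more members passed for 1 of Ccl24 and Saa3 than for both. The rule had already chosen on their sum with Ednrb. Counting any UMI, 83.3% and 80.2% of WT and KO sham members had Ccl24, and 58.2% and 63.8% Saa3. At 24 h after ligation 59.8% and 49.6% had Ccl24 and 77.6% and 83.8% Saa3. At 72 h these were 54.1% and 37.4%, and 82.0% and 87.7%. A UMI of only 1 of the 3 genes was found in 27.0% and 25.4%, 44.5% and 52.8%, and 33.3% and 50.3%. Counting at least 5 UMIs, 410 members (27.4%) had Ccl24 and not Saa3, 700 (46.8%) had Saa3 and not Ccl24, 266 (17.8%) had both and 120 (8.02%) had neither and passed on the sum. The Ccl24-only share was 46.8% and 38.8% in the WT and KO sham libraries, 25.2% and 19.3% at 24 h after ligation and 15.3% and 11.6% at 72 h. The Saa3-only share ran the other way, at 18.8% and 21.98%, 50.8% and 60.4%, and 64.0% and 75.5%. Cells with both made up 23.8% and 27.2% in sham, 19.7% and 16.0% at 24 h after ligation, and 9.01% and 1.29% at 72 h. The set of cells therefore differed in make-up between conditions, and a difference between pooled members can lie between classes or within them. The median depth of Saa3-only cells was 8215 to 11479 UMIs in the 4 libraries at 24 h, that of Ccl24-only cells 9796 to 11836, and that of cells with both 9421 to 14620.5.

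The cells with both genes carried the highest levels of a group of genes known from macrophages of body cavities. In the 4 libraries at 24 h, where each class held at least 50 cells, 9 of 14 measured genes of the cavity macrophage list were highest in cells with both genes in every library, none in Ccl24-only cells and none in Saa3-only cells. Over 258 measured genes of all lists outside the rule, 27 were highest in cells with both, 22 in Ccl24-only cells and 36 in Saa3-only cells in all 4 libraries. Prg4, the lubricating proteoglycan 4, ranged over 339 to 859.9 CPM in cells with both, 0 to 87.7 in Ccl24-only and 35.5 to 414 in Saa3-only cells. These are pooled levels, and few cells carried Prg4. In the sham libraries 24 KO and 21 WT members of any class had a Prg4 UMI, and 1 KO cell held 29.0% of those in KO. Alox15, the 12/15-lipoxygenase of cavity macrophages, ranged over 85.9 to 253 CPM in cells with both, against 0 to 51.5 and 5.71 to 119. Serpinb2, plasminogen activator inhibitor 2, ranged over 329 to 824 CPM, against 22.5 to 127 and 95.2 to 692. Its range overlapped that of Saa3-only cells, though it was highest in cells with both within each library. Slpi, an inhibitor of leukocyte proteases, ranged over 1827 to 3249 CPM, with no overlap with Ccl24-only cells (333 to 577) or Saa3-only cells (511 to 994). Selp (P-selectin), Itga6, Gata6, the transcription factor of cavity macrophages, Ltbp1, Padi4 and Ptgs1 (cyclooxygenase 1) were also highest in cells with both in all 4 libraries. So was Ltc4s, at 159 to 451 CPM.

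Ccl24-only and Saa3-only cells, as cut at 5 UMIs, differed in other genes. Spp1 (osteopontin) was highest in Ccl24-only cells in all 4 libraries, at 6416 to 11913 CPM against 1887 to 5494 in Saa3-only cells. Of 19 measured genes of hypoxia and glycolysis, 5 were highest in Ccl24-only cells in all 4 libraries. Another 2 were highest in Saa3-only cells and 1 in cells with both in all 4. Of 12 phagocytic and scavenger receptors these counts were 5, 0 and 1. In Saa3-only cells 10 of 12 measured classical monocyte genes were highest in all 4 libraries. Ly6c2 stood there at 239.7 to 284 CPM against 10.6 to 65.8 in Ccl24-only cells. Plac8, a monocyte gene, stood at 1017 to 1287 against 224 to 371, and Chil3 at 2179 to 7023 against 1159 to 2039. The classes did not overlap in any of these 3 genes. The classes themselves were cut from measured values of 2 rule genes, and these levels come with no test.

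**Figure D3:**
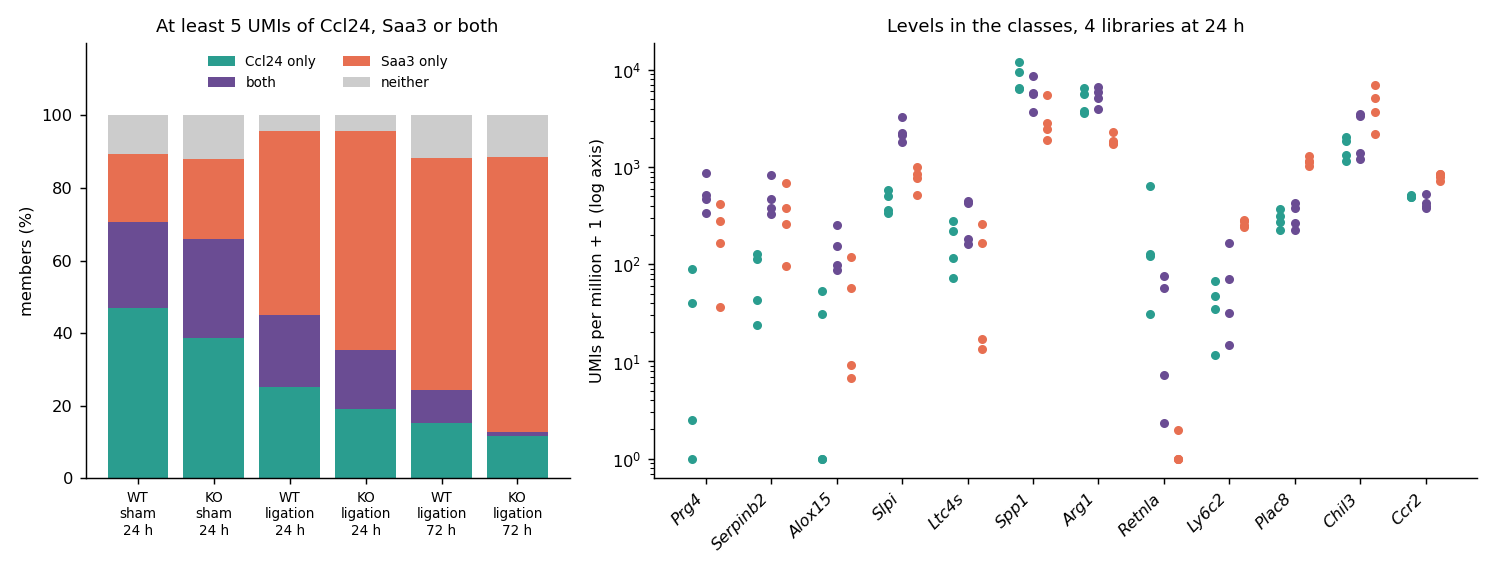
Left, percent of members in each library with at least 5 UMIs of Ccl24 only, Saa3 only, both or neither (stacked bars). Right, pooled level (CPM plus 1, log axis) of 12 genes in cells with Ccl24 only, both or Saa3 only, 1 point for each of the 4 libraries at 24 h. Slpi is highest in cells with both (1827 to 3249), and Ly6c2 and Plac8 in Saa3-only cells.

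Some cavity macrophage genes were also found in a larger share of members than of the other monocytes and macrophages at matched depth. After thinning to 3000 UMIs, a UMI of Prg4, Alox15, Selp, Serpinb2, Ltbp1 or Gata6 was found in 16.7% and 16.2% of members in the WT and KO sham libraries, 11.9% and 7.86% at 24 h after ligation and 20.99% and 16.7% at 72 h. In the other monocytes and macrophages it was found in 3.13% and 3.77%, 7.36% and 3.90%, and 1.702% and 3.77%. Members were above the others in every library. At 24 h after ligation the 95% intervals overlapped: 8.15 to 16.5% and 4.49 to 11.3% in WT, and 5.57 to 10.7% and 2.52 to 5.75% in KO. The genes counted here are part of the 15 on the cavity macrophage list. Unthinned, the members' shares were 12.8 to 26.1%. Fibroblasts of the same libraries carried such a UMI in 42.0 to 73.7% of thinned cells, mostly of Prg4, and neutrophils in 0 to 6.95%. Endothelial cells carried one in 20.5% and 19.2% of thinned cells in sham, 15.3% and 11.51% at 24 h after ligation and 15.8% and 15.8% at 72 h, so members were below them in the 4 libraries at 24 h. Cells left out for Lyve1, Folr2, Timd4 and Cd163 carried one in 0 to 10%. In the members, the fibroblast markers apart from Gsn summed to 13.7 to 22.4 CPM outside KO at 72 h, and to 528 CPM in that library.

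Across 6887 genes measured in all 6 libraries, 18 genes outside the rule (0.261%) were at least 2-fold higher in members than in the other monocytes and macrophages in every library, and 16 (0.232%) at least 2-fold lower. These counts follow the rule's own contrast and are a description. Outside the rule Prg4 had the highest median log2 ratio, 7.39, at 166 and 381 CPM in the WT and KO sham libraries, 159 and 133 at 24 h after ligation and 86.8 and 81.2 at 72 h in members and 0.520 to 16.2 CPM in the others. Cd5l, a secreted scavenger protein of tissue macrophages, stood at 44.6 and 43.0 CPM in the WT and KO sham libraries, 19.7 and 21.6 at 24 h after ligation and 127 and 71.5 at 72 h, and at 0 to 4.995 CPM in the others. Padi4, a peptidyl arginine deiminase, had a median of 2.90, Serpinb2 of 3.46 and Slpi of 2.11. Prg4 was carried by few cells, with a UMI in 17 to 25 members of each library. Slpi was carried by more, with a UMI in 59.5% of WT and 41.3% of KO members at 72 h.

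Arg1, the arginase of alternatively activated macrophages, stood at 3354 and 3643 CPM in the WT and KO sham libraries, 3940.5 and 3584 at 24 h after ligation and 2233 and 2377 at 72 h in members and was higher than in the others in all 6 libraries, with a median log2 ratio of 2.54. The chemokines Ccl6 (1.73), Cxcl3 (1.92) and Pf4 (1.77) were also among the 15 highest by this measure with one direction in every library, as were Itga6 (2.16), Olr1 (1.89) and Cd38 (1.84). Not all of these set members apart from the cells that the exclusions removed. Against cells removed for Trem2 and Gpnmb, in the libraries with at least 50 cells on both sides, Pf4 had a median log2 ratio of -0.49 and was higher in members in 1 of 5 libraries. Against cells removed for the resident genes it had -1.07 and was higher in 0 of 4. Ccl6, Cxcl3 and Arg1 were higher in members than in both kinds of cell in each of those libraries, and Itga6 in 3 of 5 and 3 of 4. Of the leukotriene and prostaglandin list, 2 of 9 measured genes, Ltc4s and Ptgs1, were at least 2-fold higher in all 6 libraries, and the median of the list was 0.50 against 0.04 over all genes. Ptgs1 stood at 62.4 and 71.7 CPM in the WT and KO sham libraries, 37.7 and 36.3 at 24 h after ligation and 152 and 77.4 at 72 h. Of the matrix and coagulation list, 12 of 19 measured genes were higher in all 6 libraries, 1 of them by 2-fold, and 1 was lower in all 6, with a median of 1.03. Over all 6887 genes 18.3% were higher in all 6. Serpinb2 was 2-fold higher throughout, and Fn1, the coagulation factors F7 (34.8 to 98.3 CPM in members) and F10 (174 to 317 CPM) and the matrix protein Thbs1 (1481 to 2389 CPM) were higher in every library, by 2-fold in 4 or 5 of them.

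The largest differences downward were in antigen presentation. Of 9 measured genes of the MHC class II and dendritic list, 6 were at least 2-fold lower in members in all 6 libraries, and the median of the list was -3.18. H2-Ab1 stood at 171 and 149 CPM in the WT and KO sham libraries, 104 and 211 at 24 h after ligation and 347 and 849 at 72 h in members and at 3639.8 and 3224 CPM in the WT and KO sham libraries, 1529 and 1947 at 24 h after ligation and 3917 and 2264 at 72 h in the others. Cd74, the invariant chain, had a median log2 ratio of -3.10, and Cd209a, a lectin of monocyte-derived dendritic cells, of -6.43. Cd74 and H2-Ab1 in members were highest in KO at 72 h. The comparison cells hold dendritic-like cells that the rule did not remove. An alternative added after seeing the data kept comparison cells in which Cd74, H2-Aa, H2-Ab1 and H2-Eb1 made up under 0.5% of UMIs. Against them 9 genes were higher and 1 lower by 2-fold in all libraries. That cut lowers these MHC genes in the comparison cells by choice. Of the 18 higher genes of the main count, 13 were measured here and 5 stayed, and of the 16 lower genes, 9 and 1. Without the KO 72 h library, 24 genes were higher and 34 lower.

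Ligation at 24 h went with higher levels of inflammatory, interferon and hypoxia genes in WT members. Of 7486 genes measured in WT members, 265 (3.54%) were at least 2-fold higher at 24 h after ligation than at 24 h after sham and 224 (2.99%) at least 2-fold lower, with a median log2 ratio over all genes of -0.11. Counted relative to that median, 328 were higher and 156 lower. Of 20 inflammatory genes 10 were 2-fold higher and none lower (median 0.94), of 12 interferon-induced genes 7 and none (1.11), of 19 hypoxia and glycolysis genes 8 and none (0.63), and of 12 classical monocyte genes 6 and none (1.05). Cxcl3, a neutrophil chemokine, was at 2590.4 against 541 CPM, a log2 ratio of 2.26 (2.18 to 2.34) with its 95% exact counting interval in brackets. Ccl2, which draws monocytes through Ccr2, was at 5710.0 against 1608 CPM, 1.83 (1.78 to 1.88). Isg15 was at 121 against 24.98 CPM, 2.27 (1.91 to 2.66), and Vegfa, a growth factor of vessels, at 88.0 against 36.0 CPM, 1.29 (0.96 to 1.63). Nos2, the inducible nitric oxide synthase, was at 42.8 CPM after ligation and 0 in sham, with 34.3% of its UMIs in 1 cell. The other monocytes and macrophages of the same libraries differed in the same direction, with log2 ratios of 3.98 for Cxcl3, 1.68 for Ccl2, 1.81 for Isg15 and 2.38 for Vegfa.

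Ltc4s was among the 8 lowest ratios in both genotypes. In WT it was at 63.1 against 293 CPM after ligation against sham, -2.21 (-2.44 to -1.99), and in KO at 72.1 against 296 CPM, -2.04 (-2.21 to -1.86). The other monocytes and macrophages were lower as well, by log2 ratios of -1.56 and -1.61. Alox15 was lower by -1.60 in WT and -1.68 in KO, from 9 to 17 cells with a UMI per library. In contrast, Ptgs2, the inducible cyclooxygenase, was higher by 1.91 (1.60 to 2.24) in WT and 1.29 (0.97 to 1.63) in KO. The leukotriene and prostaglandin list thus held genes in both directions, 1 of 11 higher and 3 lower by 2-fold in WT, and 1 and 4 of 11 in KO. Fn1 was at 3518 against 6632 CPM in WT and 3276 against 5896 CPM in KO, lower by less than 2-fold.

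In KO members 205 of 7874 genes (2.6%) were at least 2-fold higher at 24 h after ligation than after sham and 619 (7.86%) lower, with a median log2 ratio over all genes of -0.25. Counted relative to that median, 400 were higher and 262 lower. Of 20 inflammatory genes 4 were 2-fold higher and 2 lower (median 0.21), of 19 hypoxia and glycolysis genes 7 and none (0.85), of 12 interferon-induced genes 1 and none (0.21), and of 12 classical monocyte genes 4 and none (0.66). Of 11 cavity macrophage genes none was higher and 6 were lower (-1.07), against 2 lower of 10 in WT (-0.42). Chil3, a chitinase-like protein, was at 5272 against 1435 CPM, 1.88 (1.83 to 1.93). Bnip3, a hypoxia target in mitochondria, was at 191 against 47.4 CPM, 2.01 (1.74 to 2.30). Ccl2 was at 5561 against 3616 CPM and a ratio of 0.62, with a sham level above that of WT (3616 against 1608 CPM). Whether the WT and KO ratios differ was not tested, and with 1 library each it cannot be.

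Mmp8, the neutrophil collagenase, led the higher genes in both genotypes, at 111 against 13.9 CPM in WT and 175 against 35.1 CPM in KO. The neutrophil markers summed to 990 against 320 CPM in WT and 1392 against 332 in KO, and these sums include Mmp8 itself. The part of neutrophil transcripts in the Mmp8 difference was not tested. Among the classes Mmp8 was highest in Saa3-only cells in all 4 libraries at 24 h, at 56.0 to 241 CPM. Lpl, lipoprotein lipase, was lower in KO at 111 against 525 CPM, -2.24 (-2.38 to -2.10), and in WT at 433 against 773 CPM, -0.83 (-0.93 to -0.74). Hsph1, a heat shock protein, and Serpinb2 were also among the 8 lowest ratios in KO, at -2.36 and -1.66, and both had been higher in KO than in WT in sham.

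Between 24 h and 72 h after ligation, inflammatory genes were lower and MHC class II genes higher in the members of both genotypes. In WT members 365 of 6405 genes (5.7%) were at least 2-fold higher at 72 h and 442 (6.9%) lower, with a median over all genes of 0.00. In KO members 517 of 7145 (7.24%) were higher and 364 (5.09%) lower, with a median of 0.09. The counting interval left out 0 for 479 and 203 of them, and for 365 and 406 in WT. Relative to the median gene KO gave 422 higher and 430 lower, and members of at least 3000 UMIs gave 480 and 500. Both comparisons share their 24 h library with the comparison against sham. Of 20 inflammatory genes 13 were 2-fold lower in WT and 10 in KO, and none higher (medians -1.63 and -0.99). Of 7 MHC class II and dendritic genes 4 were higher in WT and 5 in KO, and none lower (1.40 and 1.68), and of 11 complement genes 4 and 5 (0.75 and 0.76). Ccl2 was at 1354 against 5710.0 CPM in WT, -2.08 (-2.17 to -1.98), and 1319 against 5561 CPM in KO, -2.08 (-2.19 to -1.97). C1qa, a chain of complement C1q, was at 998 against 381 CPM in WT and 1201 against 323 CPM in KO. In the other monocytes and macrophages the log2 ratio of Ccl2 was -2.43 in WT and -1.89 in KO. H2-Ab1 was higher at 72 h by 1.74 in WT, where 1 cell held 31.2% of its UMIs, and by 2.01 in KO.

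Ltc4s, Prtn3 and Fn1 were higher at 72 h than at 24 h after ligation. Ltc4s was at 667 against 63.1 CPM in WT, 3.40 (3.16 to 3.64), and 299.7 against 72.1 CPM in KO, 2.06 (1.78 to 2.33). Prtn3 was at 302 against 32.0 CPM in WT, 3.24 (2.90 to 3.59), and 151 against 74.4 CPM in KO, 1.02 (0.65 to 1.37). In the other monocytes and macrophages Prtn3 was lower at 72 h, by -1.72 and -0.60, while Ltc4s was higher, by 1.35 and 1.998. Fn1 was at 6748 against 3518 CPM in WT and 4531 against 3276 CPM in KO, higher by less than 2-fold. Pltp, the phospholipid transfer protein, and Timp2, an inhibitor of metalloproteinases, were among the 8 highest ratios in both genotypes. Timp2 was at 292 against 36.8 CPM in WT and 205 against 25.9 CPM in KO, and Pltp at 166 against 13.8 CPM and 176 against 17.6 CPM. Cd5l was among the 8 highest in WT, at 127 against 19.7 CPM, 2.69 (2.21 to 3.17).

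The matrix and coagulation list had 10 of 19 genes 2-fold lower in WT and 7 of 19 in KO, with 3 and 1 higher. Spp1 was at 1537 against 5723 CPM in WT and 2077 against 5881 CPM in KO, and Vcan (versican) at 234 against 819.7 CPM and 118 against 503 CPM. Chil3 was at 765 against 3808 CPM in WT and 874 against 5272 CPM in KO, and it was lower in the other cells as well (-1.65 and -1.63). Ccl3, a chemokine of inflamed tissue, and Serpinb2 were among the 8 lowest ratios in both genotypes. Apart from Retnla, the highest ratios in KO at 72 h were those of Rarres2, Mgp, Igkc and Ccl8, with 57.4% of the Rarres2 UMIs in 1 cell. Mgp and Rarres2 are known from fibroblasts and other stromal cells and Igkc from plasma cells and B cells, and the fibroblast markers of these members summed to 837 against 225 CPM. H19 in WT at 72 h and Retnla in KO at 72 h each had all of their UMIs in 1 cell.

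**Figure D4:**
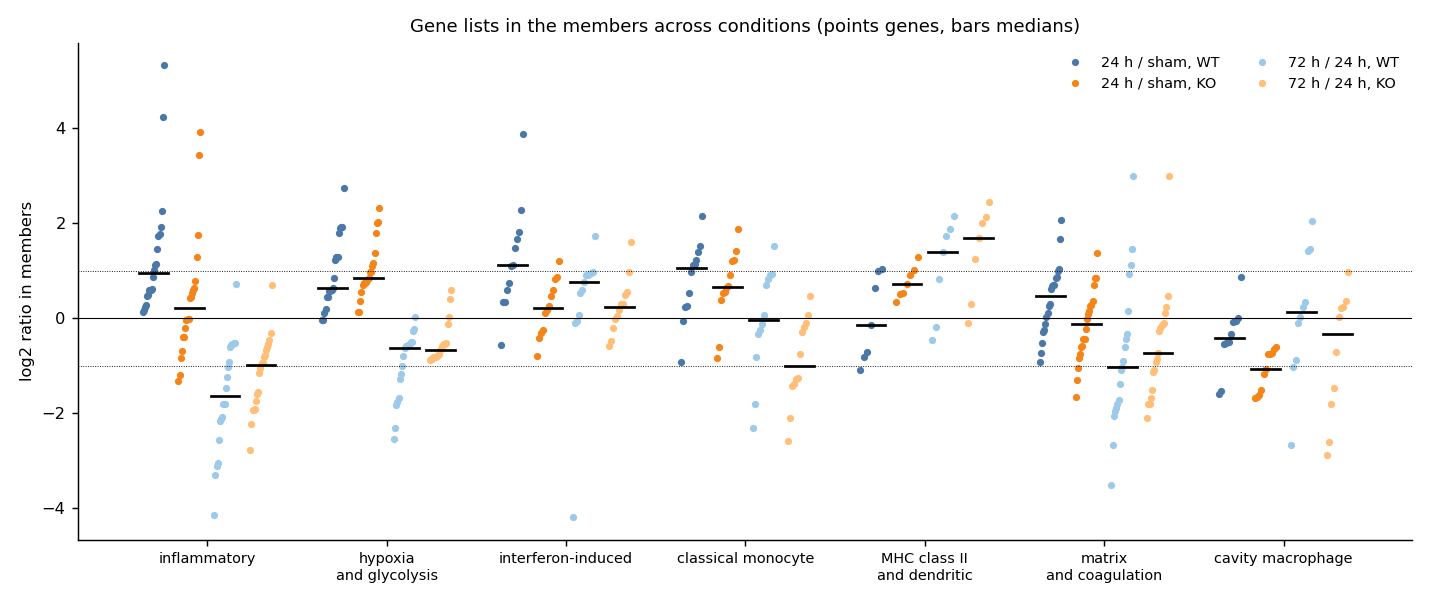
Log2 ratio in members (vertical axis) of each measured gene of 7 lists, 1 point per gene, for ligation 24 h against sham and for 72 h against 24 h in WT (blue) and KO (orange), with bars at the list medians and dotted lines at 2-fold. Inflammatory genes lie mostly above 0 at 24 h in WT (median 0.94) and below 0 at 72 h in both genotypes (-1.63 and -0.99).

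Because Saa3-only cells made up more of the members after ligation, the comparisons were repeated within classes that held at least 50 cells in both libraries, an alternative added after seeing the data. Among Saa3-only cells 11 of 15 inflammatory genes were 2-fold higher at 24 h after ligation than after sham in WT (median 1.51) and 10 of 18 in KO (1.07), with none lower. Over all genes measured in these cells 5.35% were higher and 4.51% lower in WT, and 3.37% and 8.37% in KO. Hypoxia and glycolysis genes were higher in 12 of 19 and 8 of 19. Classical monocyte genes were not: 1 of 12 was higher and 1 lower in each genotype, with medians of 0.19 and 0.18. In Ccl24-only cells 6 of 15 inflammatory genes were higher and none lower in WT (0.80), and 2 of 17 higher and 2 lower in KO (0.10), over backgrounds of 3.22% higher and 2.38% lower in WT and 2.2% and 4.79% in KO. In cells with both, 8 of 17 were higher and none lower in WT (0.98), and 1 of 15 higher and 5 lower in KO (-0.19), over backgrounds of 4.38% and 3.25% in WT and 2.94% and 7.13% in KO. Classical monocyte genes were higher in 4 of 11 in cells with both in each genotype. The inflammatory difference in WT was thus present in all 3 classes, and the monocyte difference was near 0 within Saa3-only cells.

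Ltc4s was lower at 24 h after ligation than after sham within every class of both genotypes. Its log2 ratios were -3.70 and -3.98 in Saa3-only cells of WT and KO, -1.95 and -0.91 in Ccl24-only cells and -1.41 and -1.32 in cells with both. At 72 h against 24 h only Saa3-only cells were numerous enough. There Ltc4s was at 526 against 12.6 CPM in WT and 311 against 16.2 CPM in KO. Prtn3 was higher there by 3.20 and 1.37, and Fn1 by 1.54 and 0.56. Among these cells 11 of 15 inflammatory genes were 2-fold lower at 72 h in WT and 13 of 16 in KO, and 4 of 6 and 5 of 7 MHC class II and dendritic genes higher. Over all genes measured in them 6.52% were higher and 7.75% lower in WT, and 7.17% and 7% in KO.

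The last comparisons set KO members against WT members of the same condition. In the sham libraries 64 of 7273 genes (0.88%) were at least 2-fold higher in KO and 39 (0.536%) lower, with a median of 0.02. Monocyte chemokines were among the higher genes. Ccl2 was at 3616 against 1608 CPM, 1.17 (1.12 to 1.22), and Ccl7, a second ligand of Ccr2, at 1351 against 542 CPM, 1.32 (1.23 to 1.41). Both were also higher in the other monocytes and macrophages, by 1.003 and 1.41. The heat shock genes Hsph1 (137 against 43.2 CPM) and Dnaja1 (637 against 267 CPM) were higher too, the first by 1.67 in members and 1.56 in the others. Of 11 interferon-induced genes 3 were 2-fold higher and none lower (median 0.82), led by Cxcl10 (3.48, from 11 and 2 cells) and Isg15 (1.498). All 12 measured cavity macrophage genes were higher in KO, 2 of them by 2-fold (median 0.36). Serpinb2 was at 448 against 162 CPM and Prg4 at 381 against 166 CPM, from 58 and 57 cells and from 24 and 21 cells with a UMI. In KO the top cell of each gene held 18.8% of the Serpinb2 UMIs and 29.0% of the Prg4 UMIs. Olr1, a receptor for oxidised lipoprotein, was lower at -1.44. Ltc4s had a ratio of 0.01 (-0.13 to 0.16), Prtn3 of -0.08 (-0.41 to 0.25) and Fn1 of -0.17 (-0.20 to -0.14), none past 2-fold within its interval.

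At 24 h after ligation 42 of 7989 genes (0.526%) were at least 2-fold higher in KO and 147 (1.84%) lower, with a median of -0.12. Counted relative to that median, 82 were higher and 94 lower. Of 20 inflammatory genes none was 2-fold higher and 4 were lower (median -0.47): Nos2 (-1.73 (-2.15 to -1.31)), Il6 (-1.71 (-2.13 to -1.29)), Il1a (-1.15) and Tnfaip3 (-1.02). Il6 and Nos2 each had a UMI in 18 to 43 cells per library, and were lower in the other cells as well, by -1.30 and -1.01. Lpl was at 111 against 433 CPM, -1.96 (-2.10 to -1.82), while the other monocytes and macrophages stood at 112 against 119 CPM, -0.10. Its ratio was -2.16 in Ccl24-only cells, -2.63 in cells with both and -0.22 in Saa3-only cells. The growth factors Areg (-3.79), Igf1 (-1.65) and Inhba (-1.47) were lower in KO, 3 of 9 measured, with Areg and Igf1 in 10 to 12 cells per library. Retnla was lower by -2.80, but had UMIs in 3 WT cells. H2-Ab1 (211 against 104 CPM) and H2-Eb1 (1.06) were 2-fold higher in KO, 2 of 7 MHC class II and dendritic genes (median 0.70). Prtn3 was at 74.4 against 32.0 CPM, 1.22 (0.91 to 1.54), higher in KO members and lower in the other KO cells (-1.14). Ltc4s and Fn1 differed by less than 2-fold, at 0.19 and -0.10.

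**Figure D5:**
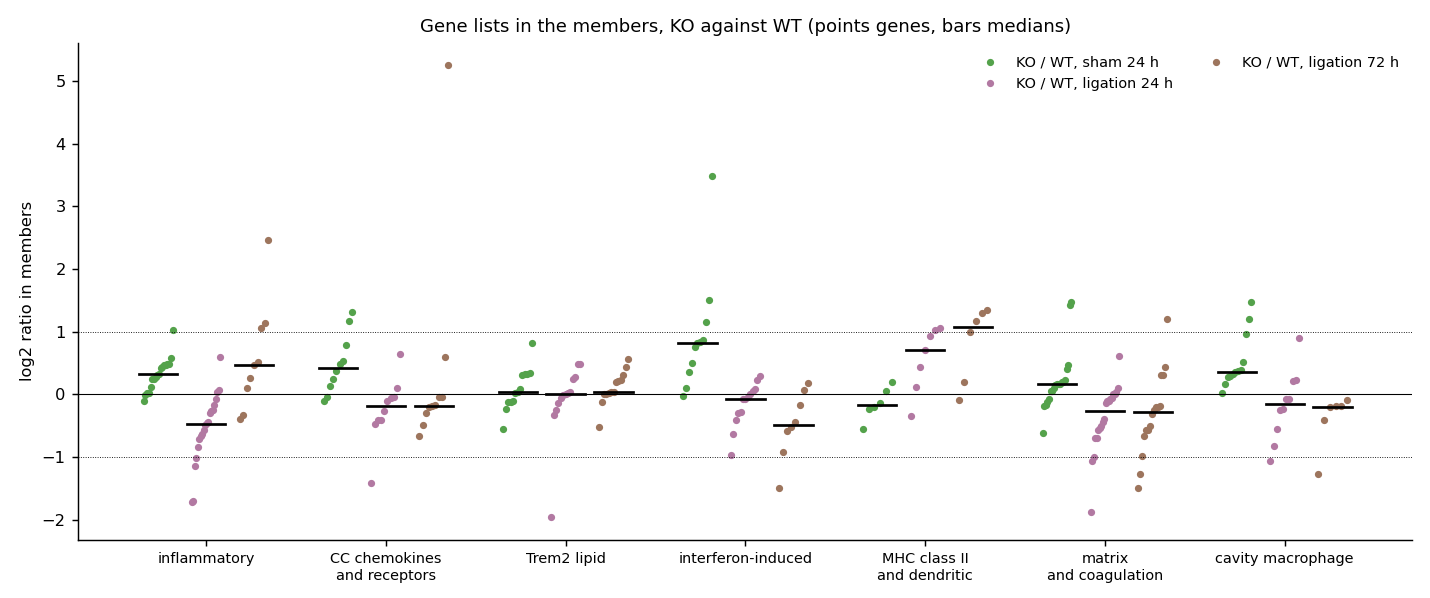
Log2 ratio of KO to WT in members (vertical axis) of each measured gene of 7 lists, 1 point per gene, in the sham (green), ligation 24 h (purple) and ligation 72 h (brown) libraries, with bars at the list medians and dotted lines at 2-fold. Inflammatory genes lie mostly below 0 at 24 h after ligation (median -0.47), and MHC class II genes above 0 in both ligation conditions (0.70 and 1.08).

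At 72 h after ligation 52 of 3126 genes (1.66%) were at least 2-fold higher in KO members and 57 (1.82%) lower, with a median of -0.06. Counted relative to that median, 59 were higher and 41 lower. Only 155 and 111 cells entered, and the KO cells were shallow and carried other cells' markers, as given above. Ccl8, a chemokine of tissue macrophages, was at 110.2 against 2.89 CPM, 5.25 (3.33 to 8.33), from 57 and 2 UMIs. Igkc was at 193 against 1.45 CPM (100 UMIs and 1 UMI) and Mgp at 414 against 55.0 CPM. Retnla had the highest ratio, from 1 cell in each library. Lyz1 had 99.5% of its UMIs, and Cxcl3 55.5%, in 1 KO cell. Of 6 MHC class II and dendritic genes 3 were 2-fold higher and none lower (median 1.08), and of 10 classical monocyte genes none was higher and 2 were lower (-0.77). Slpi was at 385 against 1558 CPM, -2.02 (-2.24 to -1.80). Ltc4s was at 299.7 against 667 CPM, -1.15 (-1.43 to -0.89), and Prtn3 at 151 against 302 CPM, -1.003 (-1.40 to -0.62). Within Saa3-only cells the ratios of these were -0.76 for Ltc4s and -1.08 for Prtn3. Counted in members with at least 3000 UMIs, 31 genes in place of 52 were 2-fold higher.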

How the data were processed

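Single-cell 3′ RNA was counted in 6 libraries, 1 per genotype and condition, of 20995280 to 45649061 UMIs each. The deposited matrices hold UMI counts per gene and cell, and per the file headers Cell Ranger 6.0.0 wrote them. The submitters' processing notes name the build mm10. The annotation and any filter before deposit are not given in the sources used here. Nothing further had been done to the counts, which were whole numbers.

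The members and the gene lists were chosen with earlier results of these data known. UMIs of the members of a library were summed and divided by their total (CPM). A gene counted as measured in a pair of pools with at least 50 UMIs over both, and as called past 2-fold. A log2 ratio carries the exact conditional interval of 2 Poisson counts, a share the Clopper-Pearson interval and a ratio of shares the Katz log interval. With 1 library per group no test was run, and intervals leave out the spread between animals. Against a pool at 0, ratios used a floor of 3 counts.

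Named genes are the markers, genes of the lists, and the highest and lowest ratios (15 and 10 against other cells, 8 and 8 within members) among genes of at least 100 CPM; 1 gene that the rule names is not reported here. The authors deposited no cell types with the counts used here, and the rule set the cells. Doublets were not removed; the highest Scrublet scores (0.8% per 1000 cells) were removed as an alternative, because the caller's own threshold marked only 0 to 46 cells per library. Depth was matched by thinning cells to 3000 UMIs. The ratios and their counting intervals were tested on simulated Poisson counts with known folds, and thinning was checked for the UMI total of each cell. The choice of cells, the shares, the classes and the spread between cells were not simulated. Python 3.11.15, numpy 2.4.6, scipy 1.17.1, pandas 2.3.3, scanpy 1.11.5 and matplotlib 3.10.9 were used.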

Additional observations from a re-analysis of the deposited data

Results flagged for a closer look

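Each pair of values below goes in opposite directions in the 2 comparisons named. With 1 library per group no difference between them was tested. The share of members among monocytes and macrophages in KO was 0.777 times that in WT at 24 h after ligation and 1.32 times at 72 h. The direction at 72 h depended on the rule. With at least 3 UMIs of the 3 genes the WT and KO shares there were 5.54% and 9.43%, and with at least 10, 3.31% and 2.87%. Thinned to 3000 UMIs they were 4.19% and 4.54%, and without the exclusions 12.2% and 8.26%. Serpinb2 in members, the plasminogen activator inhibitor 2, had a KO to WT log2 ratio of 1.47 in the sham libraries and -1.06 at 24 h after ligation. Fabp4, a fatty acid binding protein of endothelial cells and macrophages, had a KO to WT log2 ratio of -1.10 at 24 h after ligation and 3.06 at 72 h. The endothelial markers summed to 547 CPM in the KO members at 72 h and 76.6 CPM in WT. Fabp4 is itself among those markers, so the sums are not independent of it. Prtn3 had a KO to WT log2 ratio of 1.22 at 24 h and -1.003 at 72 h. Between 24 h and 72 h after ligation Alox15 had a log2 ratio of 1.41 in WT, from 9 cells at each time, and -2.89 in KO, from 2 cells at 72 h. Ccl8 had -2.58 in WT and 4.09 in KO over the same interval.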

How the results depend on the processing

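No paired analysis was possible because each group is 1 library and the groups share only the replicate number 1. Of 70 alternative values of the 7 share ratios, 52 stayed within the counting error and 18 moved beyond it, 3 of them to the other side of 1. The KO to WT ratio at 72 h after ligation became 1.7015 with at least 3 UMIs of the 3 genes, 0.866 with 10, 2.44 with 5 per 10000 UMIs and 0.675 without the exclusions. The KO ratio of 72 h to 24 h became 0.292 with 3 UMIs, 0.125 with 10, 0.162 thinned, 0.444 per 10000 UMIs, 0.150 in cells of 3000 UMIs, 0.169 without exclusions and 0.50005 over all quality cells, and the WT ratio 0.0920 in cells of 3000 UMIs, 0.230 without exclusions and 0.317 over quality cells. Without exclusions KO to WT at 24 h was 0.921 and WT 24 h to sham 1.31. Over quality cells, a denominator added after seeing the data, KO to WT in sham was 0.752 and KO 24 h to sham 1.72.

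Counts of genes past 2-fold followed the minimum depth. Written as higher and lower, a minimum of 20 UMIs gave 149 and 165 for KO to WT in sham, 149 and 287 at 24 h, 252 and 205 at 72 h, 401 and 474 for WT 24 h to sham, 358 higher for KO, 696 and 702 for WT 72 h to 24 h, and 1050 and 549 for KO. A minimum of 200 UMIs gave 16 and 7, 8 and 28, 14 and 6, 130 and 53, 97 and 194, 86 and 158, and 78 and 122. Relative to the median gene KO to WT at 24 h gave 82 and 94, and KO 24 h to sham 400 and 262. The mean of per-cell levels gave 100 and 144 for KO to WT at 72 h, 396 lower for WT 24 h to sham and 566 higher for WT 72 h to 24 h. Saa3-only members gave 39 and 19 for KO to WT in sham, and members of 3000 UMIs 31 higher at 72 h. Against other cells, 20 UMIs gave 28 higher, 200 UMIs 3 and 8, per-cell means 10 lower, members of 3000 UMIs 11 and 26, comparison cells with none of the 3 genes 35 higher, comparison cells low in MHC class II 9 and 1, and leaving out the KO 72 h library 34 lower.

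Of 1365 alternative values of 177 single genes, 1302 kept their side of 2-fold. Within members, a change of direction below 2-fold was not counted as a change. Lyz1 in KO to WT at 72 h turned to -0.82 in the mean of per-cell levels. Thinned to 1000 UMIs in place of 3000, the ratio of cells with a Saa3 UMI was 0.451 for KO 72 h to 24 h, and that of Ednrb 0.711 there and 1.07 for KO to WT at 72 h. Apart from the changes that follow from fewer genes, cells or UMIs counted, the cause was not tested. Members at 72 h were the shallowest, with medians of 5241 UMIs per cell in WT and 2304 in KO.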
